A study of Mus musculus with 425 samples.

Results

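Fragments of leucine and serine tRNAs were followed as 54 features, 30 with a leucine and 24 with a serine anticodon, out of 435 tRNA features and 2343 small RNA features in all. They were chosen by name alone: every deposited tRNA feature whose name ends in a Leu or Ser anticodon was taken, whatever its level. The study sequenced gel-selected small RNA of sperm and epididymis from mice in which Dgcr8, the gene of the RNA-binding subunit of the nuclear microRNA-processing complex, was deleted by Cre recombinase. In the Stra8 line the controls were Dgcr8+/fl; Stra8-iCre and the conditional knockouts (cKO) were Dgcr8fl/fl; Stra8-iCre, with a driver active in male germ cells. In the Defb41 line the controls were Dgcr8+/fl; Defb41-iCre and the cKO were Dgcr8fl/fl; Defb41-iCre, written Dgcr8fl/fl; Defb-iCre on the sperm libraries, with a driver active in the epithelium of the caput, the upstream end of the epididymis. Every group therefore carried a floxed Dgcr8 allele and a Cre transgene, and no group without them was compared; the labels used here give neither strain nor age. Sperm came from the testis and from the cauda, the storage end of the epididymis. Testicular sperm had 4 control and 4 cKO libraries in each line, Stra8 cauda sperm had 4 and 4, and Defb41 cauda sperm had 8 and 8 in 2 series, told apart only by how the labels name them. Whole epididymis had 7 and 7 Stra8 caput, 6 and 8 Stra8 cauda, 3 and 3 Defb41 caput, and 4 and 3 Defb41 cauda libraries, control first.

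Leucine and serine tRNAs share a long variable arm, an extra stem and loop between the anticodon stem and the T arm, which most other tRNAs lack and which seryl-tRNA synthetase reads when it loads serine. tRNA fragments are cut from mature tRNAs, often in or beside the anticodon loop, and are not known to need the DGCR8 complex. Sperm leaving the testis are rich in piRNAs, and sperm in the cauda are rich in tRNA fragments, of which those of glycine and glutamate tRNAs are the best known.

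Sequences are shown for the members on which the results turn, because several of them differ at so few bases that short reads can match more than 1 of them. They are tRNA gene sequences from RefSeq on the mouse build GRCm38.p6, which the labels call mm10, printed 5′ to 3′ in lower case with the anticodon in capitals. The deposited names carry a chromosome and an anticodon but no coordinates, so a feature was given a sequence only where RefSeq has 1 gene, or identical copies, for that chromosome and anticodon. This gave sequences to 26 features, 23 of them distinct, which held 43.41% of the leucine and serine reads. The other 28 features are named only.
chr4.trna16-SerAGA: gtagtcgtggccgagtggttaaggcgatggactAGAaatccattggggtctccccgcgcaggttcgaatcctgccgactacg
chr13.trna112-SerTGA: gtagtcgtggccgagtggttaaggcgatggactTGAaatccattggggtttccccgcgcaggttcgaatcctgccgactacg
chr11.trna2021-LeuAAG: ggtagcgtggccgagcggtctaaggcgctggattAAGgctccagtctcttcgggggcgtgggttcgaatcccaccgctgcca
chr11.trna401-LeuTAG: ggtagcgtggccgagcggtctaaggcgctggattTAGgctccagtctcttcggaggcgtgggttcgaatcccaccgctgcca
chr7.trna561-LeuAAG: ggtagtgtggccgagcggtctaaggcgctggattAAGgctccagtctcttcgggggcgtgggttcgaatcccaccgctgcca
chr14.trna709-LeuTAG: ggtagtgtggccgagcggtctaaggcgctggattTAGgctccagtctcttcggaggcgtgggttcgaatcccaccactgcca
chr13.trna964-LeuCAG: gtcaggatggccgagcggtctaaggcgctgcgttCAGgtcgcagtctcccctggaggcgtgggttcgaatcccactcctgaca
chr10.trna1326-LeuTAA: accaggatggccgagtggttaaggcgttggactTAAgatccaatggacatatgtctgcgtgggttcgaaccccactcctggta
chr2.trna1509-SerGCT: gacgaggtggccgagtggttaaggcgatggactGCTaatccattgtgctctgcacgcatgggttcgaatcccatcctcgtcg
chr10.trna698-SerCGA: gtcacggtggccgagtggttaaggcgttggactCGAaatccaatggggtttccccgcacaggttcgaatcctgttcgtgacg
chrM.trna1-LeuTAA: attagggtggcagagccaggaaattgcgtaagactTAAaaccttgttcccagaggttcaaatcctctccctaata

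The genes lay far apart: chr4.trna16-SerAGA at chr4:10874064-10874145 on the plus strand, chr11.trna2021-LeuAAG at chr11:48856974-48857055 on the minus strand, chr11.trna401-LeuTAG at chr11:69124241-69124322 on the plus strand and chr10.trna1326-LeuTAA at chr10:12922571-12922653 on the minus strand. chr13.trna112-SerTGA has identical copies on chromosome 13 and so no single position. That chromosome carries a tRNA cluster with 19 of the 47 nuclear leucine and serine tRNA genes of RefSeq, between positions 21170036 and 23521951, and 19 of the 54 features. The mitochondrial member, chrM.trna1-LeuTAA (TrnL1, chrM:2676-2750 on the plus strand of the mitochondrial genome), is 75 bases long and has no long variable arm, against 82 or 83 bases for the other tRNAs shown.

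Many of the features did not give independent counts. Positions below are counted from 1 at the 5′ end of the tRNA gene. The 2 serine tRNAs differed only by A34T, in the anticodon, and C50T, from chr4.trna16-SerAGA to chr13.trna112-SerTGA. Across libraries the counts of 7 SerAGA and 2 SerTGA features, these included, differed from each other by no more than 1.64 times counting noise, measured as the mean squared difference over the sum of the paired counts, where pure counting noise gives 1. Against features outside that set the same measure was at least 44.31. The anticodons AAG and TAG of leucine were tied in the same way. chr11.trna2021-LeuAAG, chr11.trna401-LeuTAG and 2 further LeuAAG features formed a set with a largest value of 1.57, and chr7.trna561-LeuAAG, chr13.trna63-LeuAAG and chr14.trna709-LeuTAG formed a set with a largest value of 1.48. The first 34 bases differed at C6T alone between chr11.trna401-LeuTAG and chr14.trna709-LeuTAG, and likewise between chr11.trna2021-LeuAAG and chr7.trna561-LeuAAG. The value between these 2 leucine sets was at least 135.7. Likewise 8 of the 10 LeuCAG features moved as 1 set, with a largest value of 1.67, and 4 SerGCT features did so with 1.42. The SerGCT set stood less apart, with a value of 2.327 to the nearest feature outside it. SerAGA with SerTGA, and LeuAAG with LeuTAG, are therefore given below by anticodon but are not separate evidence, and counts of features called count such copies several times. How reads that match several tRNA genes were shared out is not stated in the sources at hand.

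**Figure D1:**
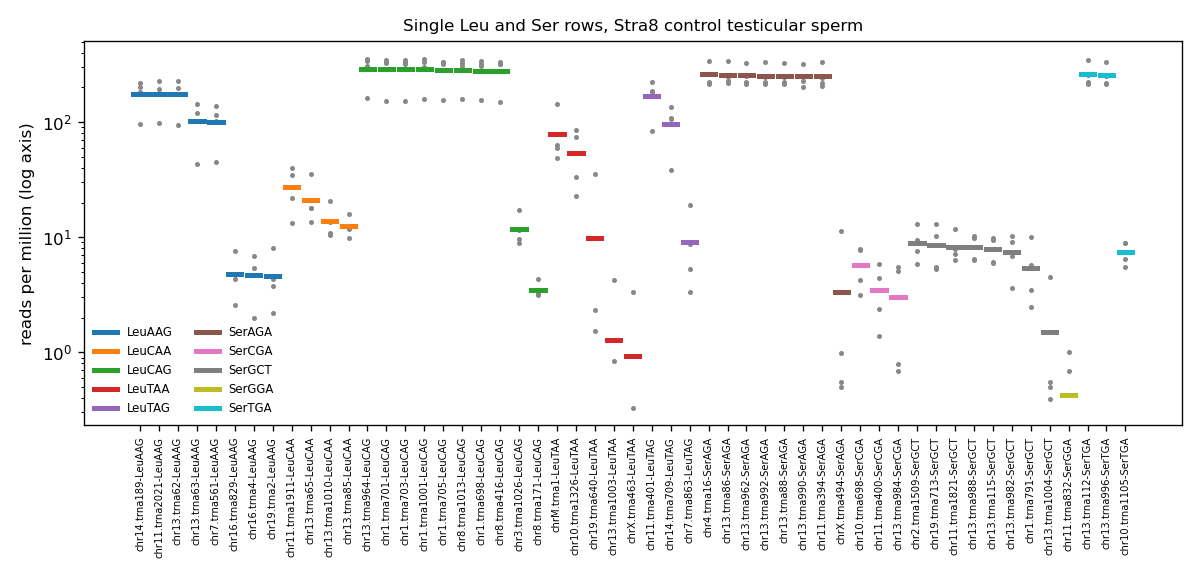
Level of each leucine and serine tRNA feature in testicular sperm of Stra8 controls, as reads scaled to the library total (RPM) on a log axis; dots are the 4 libraries and bars the means. Features of 1 anticodon fall into level sets, with 8 LeuCAG features at means of 279.7 to 291.6 RPM and the SerAGA and SerTGA set at 249.5 to 259.9 RPM.

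Depth ran from 615991 to 38690140 reads per library with a median of 8884442, and the leucine and serine tRNAs together had 3370 to 186099 reads in sperm but only 72 to 7852 in epididymis, so the epididymal values are the less precise ones. Summed germ-cell microRNAs, 8 markers that need DGCR8, served as a check of the sperm labels: they lay at 20160 to 26690 RPM in Stra8 control and 2212 to 5261 RPM in Stra8 cKO testicular sperm. The testicular sperm libraries also held blood-cell microRNAs (5 markers, 8383 to 35040 RPM in Stra8 controls and 3503 to 19630 RPM in cKO). mRNA libraries of whole epididymis went against some of their labels. Those labelled Defb41 cKO caput summed to 77.2 to 172 TPM (transcript level scaled to the library total) over 5 caput markers, against 72429 to 99322 TPM in Defb41 control caput. Their Dgcr8 mRNA, at 1.69 to 3.24 TPM, was not below the 0.78 to 1.50 TPM of those controls. Those labelled Defb41 control cauda held 16573 to 38229 TPM of the caput markers, against 89.5 to 255 TPM in Stra8 control cauda. Their 5 cauda markers summed to 298 to 1760 TPM, against 5178 to 7230 TPM in Stra8 control cauda. Whether each library is a separate animal is not stated, so a p-value refers to the spread between libraries, part of which may be technical.

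Leucine and serine tRNAs made up a far larger share of tRNA reads in testicular sperm than in cauda sperm or epididymis. In Stra8 control testicular sperm they were 11.6% ± 1.91 of tRNA reads (SD, n = 4), and in Stra8 control cauda sperm 1.31% ± 0.675 (n = 4). In Defb41 controls the shares were 5.19% ± 1.46 (n = 4) and 0.946% ± 0.719 (n = 8). The Stra8 control libraries held 9.55 to 14.1% in the testis and 0.731 to 2.10% in the cauda, so the sites did not overlap. Whole Stra8 control epididymis had a mean of 0.273% in the caput (n = 7) and 0.581% in the cauda (n = 6). All tRNA reads together rose from a mean of 5.11% to 69.0% of the library between Stra8 control testicular and cauda sperm, so a smaller share of tRNA reads and a higher RPM occur side by side.

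**Figure D2:**
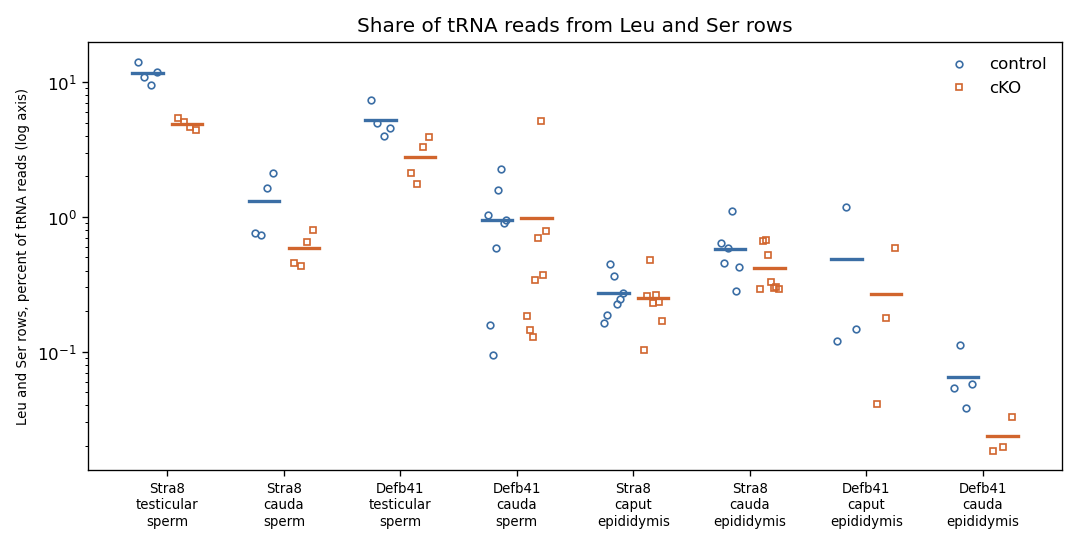
Leucine and serine reads as a percentage of all tRNA reads in each library, by line, tissue and genotype; points are libraries and lines are group means. Stra8 control testicular sperm lies highest, at 9.55 to 14.1%, above its cKO counterparts at 4.40 to 5.39%.

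Within each amino acid a few anticodons held most of the reads. LeuCAG was 65.2% ± 1.98 of leucine reads in Stra8 control testicular sperm (SD, n = 4), followed by LeuAAG at 20.8% ± 0.893. SerAGA was 75.1% ± 0.612 of serine reads there and SerTGA 21.99% ± 0.258, which leaves SerGCT at 2.35% ± 0.533. The Defb41 control testicular sperm had the same leading anticodons but a larger SerGCT share, 19.9% ± 8.05, and a larger nuclear LeuTAA share of leucine reads, 11.5% ± 3.18 against 1.89% ± 0.361. The difference between lines in these shares was not tested, and the lines cannot be told apart from any difference in how their libraries were made. The order of single features depended on the group: chr10.trna1326-LeuTAA had a mean of 54.2 RPM and chr1.trna698-LeuCAG one of 279.8 RPM in Stra8 control testicular sperm, against 631 and 445 RPM in Stra8 control cauda sperm. Over all tissues pooled, chr10.trna1326-LeuTAA had the highest mean over the 81 assigned libraries at 88.4 RPM, ahead of chr1.trna698-LeuCAG at 80.7, chr14.trna189-LeuAAG at 60.4 and chr11.trna401-LeuTAG at 60.1 RPM. chr13.trna112-SerTGA averaged 47.8 and chr13.trna992-SerAGA 47.0 RPM. The leading features of the other anticodons were lower, with chr13.trna65-LeuCAA at 19.8, chr13.trna988-SerGCT at 14.5, chr10.trna698-SerCGA at 10.1 and chr11.trna832-SerGGA, the only SerGGA feature, at 3.75 RPM.

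Testicular sperm of the Stra8 cKO had lower levels of serine and leucine tRNA fragments than their controls, with the largest falls in SerAGA, SerTGA and mitochondrial LeuTAA. The 4 control libraries held 7548, 4252, 5913 and 5912 RPM of leucine and serine tRNAs together, and the 4 cKO libraries 2294, 2686, 1514 and 1052 RPM. Every cKO library lay below every control, and the ratio of means was 3.13. In a bulk sample fewer cells of a type and less RNA per cell cannot be told apart. Of the 47 features with enough reads to test, 20 fell and none rose at an adjusted p under 0.05, where edgeR called 13.7% of all features in either direction, 0.681% as higher and 13% as lower. Of the tRNA features of other amino acids it called 16%, and with tRNAs summed by anticodon, as used for the anticodons below, 11.4% of all features. The fallen features were 10 of 28 leucine and 10 of 19 serine features. The median log2 difference over the 47 was −1.39, against −0.996 over tRNA features of other amino acids and −0.60 over all features tested.

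SerAGA, the major serine tRNA here, whose first anticodon base is edited to inosine, stood at 2329, 1746, 1495 and 1553 RPM in the controls and 485, 491, 164 and 90.2 RPM in the cKO. The groups were far apart, and the log2 difference was −2.53 (SE 0.50; adjusted p = 0.00771, edgeR quasi-likelihood test with Benjamini-Hochberg adjustment over all features). SerTGA, whose features had counts like those of SerAGA, fell by 2.52 (SE 0.49; edgeR adjusted p = 0.00747). LeuCAG, the major leucine tRNA here, stood at 2768, 1262, 2603 and 2567 RPM in controls and 990, 1162, 810 and 616 RPM in cKO. Control replicate 2 lay nearest to the cKO libraries, but the groups did not overlap, and the log2 difference was −1.36 (SE 0.29; edgeR adjusted p = 0.0109). SerGCT, the tRNA for the AGC and AGU codons, ran from 38.4 to 82.7 RPM in controls and from 11.4 to 30.3 RPM in cKO, a log2 difference of −1.61 (SE 0.40; edgeR adjusted p = 0.022). The 3 single features with the smallest adjusted p all came from the serine set: chr13.trna990-SerAGA (log2 difference −2.56, edgeR adjusted p = 0.00622), chr13.trna996-SerTGA (−2.63, adjusted p = 0.00691) and chr4.trna16-SerAGA (−2.63, adjusted p = 0.00712).

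The LeuTAA sum mixes the mitochondrial tRNA with nuclear ones, and of these only the mitochondrial one passed by itself. Mitochondrial LeuTAA, read in the organelle for UUA and UUG codons, stood at 143, 59.98, 48.5 and 63.8 RPM in controls and 19.1, 16.9, 4.38 and 7.81 RPM in cKO. These groups did not overlap, and the log2 difference was −2.72 (SE 0.54; edgeR adjusted p = 0.00764). The whole LeuTAA sum gave −1.95 (SE 0.39; edgeR adjusted p = 0.00793). Nuclear LeuTAA alone ran from 36.6 to 88.4 RPM in controls and from 16.8 to 46.7 RPM in cKO, overlapped between the groups, and did not pass (log2 difference −1.38, edgeR adjusted p = 0.0572). LeuAAG (−1.02, adjusted p = 0.112), LeuTAG (−1.05, 0.118), LeuCAA (−1.11, 0.0564) and SerCGA (−2.02, 0.0813) did not pass in edgeR either, though relative to all tRNA reads SerCGA did (−1.54, adjusted p = 0.02), and under TMM scaling LeuCAA did (−0.90, 0.0365). SerGGA had too few reads to test.

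The falls in SerAGA, SerTGA and LeuCAG kept their calls under every alternative scaling, filter, test and left-out library that was tried, while SerGCT lost its call relative to all tRNA reads (adjusted p = 0.0599), without cKO replicate 1 (0.0694) and without cKO replicate 4 (0.0596) in edgeR. The number of features called was 10 without cKO replicate 3. The germ-cell microRNAs moved with the fragments, as given above, as did 5 epithelial microRNAs (228 to 1188 RPM in controls, 66.0 to 399 RPM in cKO) and the blood-cell microRNAs; their part in the result was not tested.

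**Figure D3:**
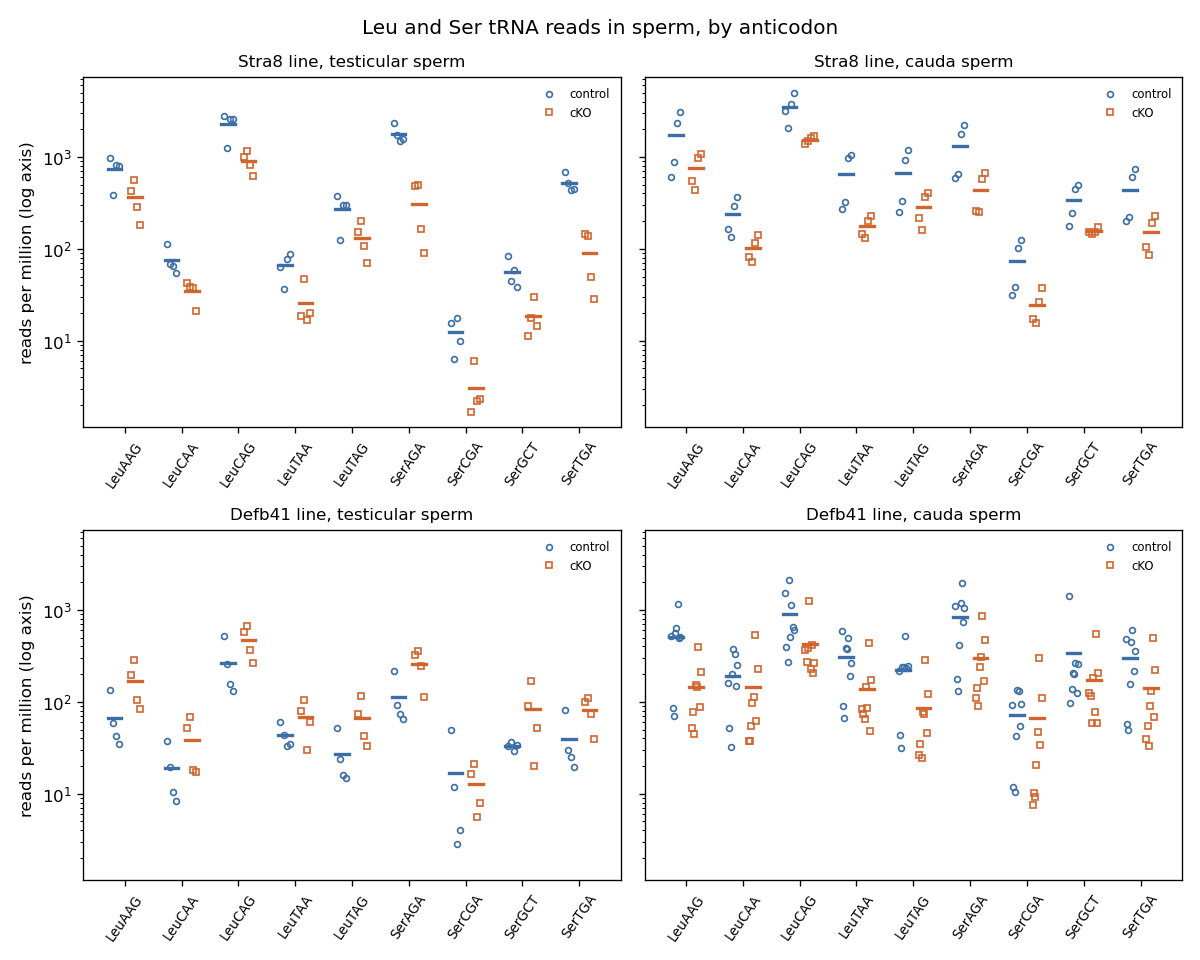
Level of 9 anticodons (SerGGA is not drawn) in every sperm library, in RPM on a log axis, for both lines and both sites; circles are controls, squares cKO and lines group means, with LeuTAA as its nuclear features alone. In Stra8 testicular sperm SerAGA lies at 1495 to 2329 RPM in controls and at 90.2 to 491 RPM in cKO.

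Stra8 cauda sperm showed lower mean values in the cKO for every anticodon but SerGGA, and few passed the test. SerGGA had too few reads to test, at 0.450, 0.209, 0.326 and 0.841 RPM in controls and 0.490, 0.135, 1.01 and 1.27 RPM in cKO. Leucine and serine tRNAs together stood at 5450, 4921, 11284 and 14235 RPM in controls and 2929, 2807, 4243 and 4690 RPM in cKO. Every cKO library lay below every control, though control replicates 3 and 4 were at more than 2 times the level of control replicates 1 and 2. Of 49 features tested 5 fell and none rose, against 5.59% of all features called in either direction and 3.48% as lower by edgeR. With tRNAs summed by anticodon it called 8.1% of all features, 2.53% as higher and 5.57% as lower. Of the tRNA features of other amino acids 0 of 301 fell and 0.997% rose. Their median log2 difference was −0.37, against −1.20 over the 49 leucine and serine features.

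Nuclear LeuTAA, here almost wholly chr10.trna1326-LeuTAA, stood at 268, 325, 978 and 1046 RPM in controls and 146, 131, 200 and 226 RPM in cKO. No cKO library reached a control library, and the log2 difference was −1.90 (SE 0.51; edgeR adjusted p = 0.0245). Mitochondrial LeuTAA, at 23.8 to 42.3 RPM in controls and 23.4 to 25.4 RPM in cKO, did not pass (log2 difference −0.50, edgeR adjusted p = 0.558). SerCGA, the serine tRNA for UCG codons, fell by 1.61 (SE 0.48; edgeR adjusted p = 0.0397), from 31.8, 38.9, 103 and 124 RPM to 17.4, 15.8, 26.7 and 37.7 RPM, with overlap at the edge. The single features with the smallest adjusted p were chr19.trna640-LeuTAA (log2 difference −1.88, edgeR adjusted p = 0.0234), chr10.trna1326-LeuTAA (−1.90, 0.0377) and chr13.trna85-LeuCAA (−1.50, 0.0423). The other anticodons had log2 differences of −1.12 (SerGCT) to −1.58 (SerAGA) and adjusted p from 0.0631 to 0.187. The whole LeuTAA sum gave −1.78 (SE 0.50; edgeR adjusted p = 0.0302). The calls of this sum and of SerCGA were lost without control replicate 3 or 4 or cKO replicate 1 or 3, and that of SerCGA also without cKO replicate 2, with edgeR adjusted p up to 0.151 for the LeuTAA sum and 0.18 for SerCGA. In DESeq2 the other 7 anticodons tested passed as well, at −1.03 (SerGCT) to −1.48 (SerAGA).

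Each left-out library moved this count of 5: it was 23 and 30 without control replicates 1 and 2, 1 and 0 without control replicates 3 and 4, and 0, 1, 0 and 3 without cKO replicates 1 to 4. It was 34 in DESeq2, 18 with no filter on low counts, and 0 relative to all tRNA reads. DESeq2 called 14.9% of all features here, and relative to all tRNA reads none of the 350 tRNA features tested was called. Germ-cell microRNAs were also lower in these cKO libraries, at 1383 to 1839 RPM against 3500 to 8162 RPM, as were blood-cell microRNAs, at 141 to 300 RPM against 219 to 587 RPM; their part was not tested.

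Only mitochondrial LeuTAA differed between the sites in its Stra8 genotype difference. Its log2 difference was 2.22 higher in the cauda than in the testis (SE 0.59; edgeR adjusted p = 0.0448), while the nuclear anticodons gave differences between −1.97 (SerGGA) and 1.001 (SerTGA), none of which passed. Of 51 features tested this was the only one called, against 2.9% of all features and 2.28% with tRNAs summed by anticodon, and no feature was called under TMM scaling, with no filter, or relative to all tRNA reads. No feature was called either without any 1 of the 8 cauda libraries, without testis control replicates 1, 2 or 4, or without testis cKO replicates 3 or 4, and 2 were without testis cKO replicate 1.

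Defb41 testicular sperm showed no called change. Leucine and serine tRNAs stood at 1196, 578, 396 and 354 RPM in controls and 1504, 1902, 911 and 681 RPM in cKO, and the groups overlapped. Of 46 features tested none passed in edgeR, where 1.5% of all features, 8.99% of other tRNA features and, with tRNAs summed by anticodon, 0.116% of features did, all of them higher, and 18 had an unadjusted p under 0.05; DESeq2 called none either. Without control replicate 1, the library highest in most anticodons, 1 feature was called. Among the anticodons SerCGA passed relative to all tRNA reads, as lower in the cKO (log2 difference −2.16, edgeR adjusted p = 0.0462). SerAGA, for example, stood at 216, 92.1, 74.7 and 65.0 RPM in controls and 321, 357, 246 and 112 RPM in cKO (log2 difference 1.21, SE 0.44; edgeR adjusted p = 0.752). The median over the 46 was 1.16, and that over other tRNA features was 1.24. As a share of tRNA reads the order was the opposite, 5.19% ± 1.46 in controls and 2.78% ± 1.001 in cKO (SD, n = 4 each), since all tRNA reads were 7824 to 16387 RPM in controls and 17397 to 107842 RPM in cKO.

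The genotype difference in testicular sperm itself differed between the lines. Of 54 features tested 29 had a higher log2 difference in the Defb41 than in the Stra8 line and none a lower one, against 16.2% of all features called in either direction, 43.9% of other tRNA features and 5.65% of all features with tRNAs summed by anticodon. The difference between lines was 3.75 for SerAGA (SE 0.71; edgeR adjusted p = 0.0051) and 3.56 for SerTGA (SE 0.73; 0.00827). It was 2.93 for SerGCT (SE 0.70; edgeR adjusted p = 0.022), 2.56 for the LeuTAA sum (SE 0.57; 0.0134) and 2.17 for LeuCAG (SE 0.56; 0.0345). LeuTAG (2.36, edgeR adjusted p = 0.0494), LeuAAG (2.33, 0.0466) and mitochondrial LeuTAA (2.67, 0.0345) also passed. Nuclear LeuTAA alone did not pass (2.06, edgeR adjusted p = 0.0525). Relative to all tRNA reads none of the 54 features was called, SerAGA differed by 1.61 (edgeR adjusted p = 0.0523), and LeuAAG, LeuTAG and LeuCAG turned to −0.033, −0.035 and −0.13. That setting tested 423 tRNA features and called 1.89% of them. By anticodon SerGGA alone was called there, at −4.92 (edgeR adjusted p = 0.0327), where it had been −2.67 (0.406). With 1 library left out at a time LeuAAG and LeuTAG each lost their calls in 11 of 16 fits and LeuCAG in 10 (edgeR adjusted p up to 0.11, 0.118 and 0.0809). SerGCT lost its call without Defb41 control replicate 3 (2.87, edgeR adjusted p = 0.0556) or cKO replicate 2 (2.31, 0.0669). SerTGA was 4.22 without Defb41 control replicate 1. The count was 18 without Stra8 control replicate 1, 19 and 13 without Stra8 cKO replicates 3 and 4, 14, 12 and 11 without Defb41 control replicates 2, 3 and 4, and 11 without Defb41 cKO replicate 1 or 2.

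**Figure D4:**
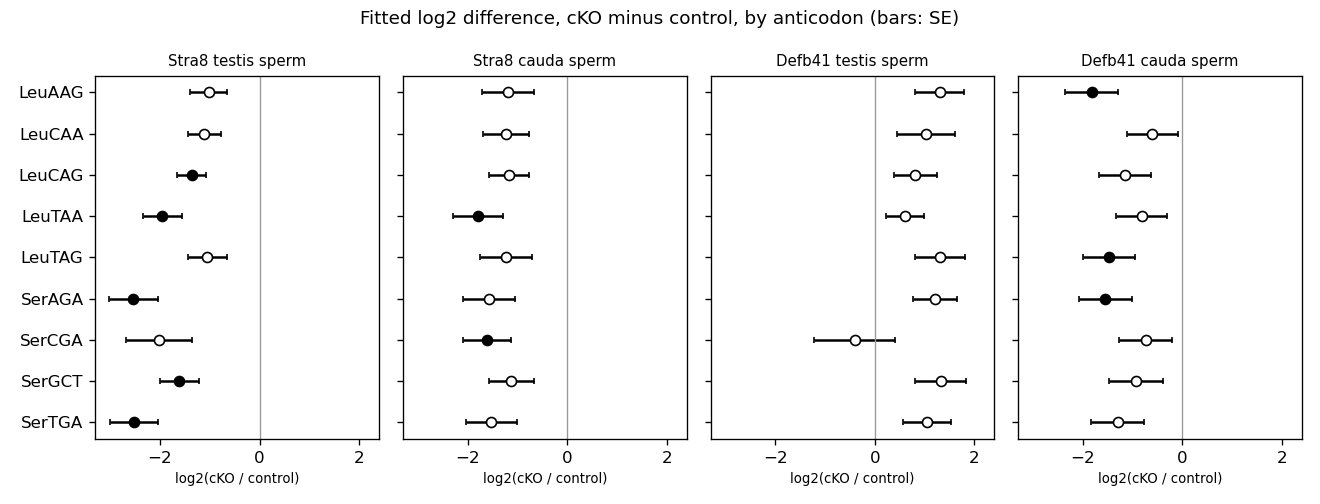
Log2 difference between cKO and control for 9 anticodons (SerGGA is not drawn) in the 4 sperm comparisons, with the standard error from edgeR; filled points passed an adjusted p of 0.05, and LeuTAA includes the mitochondrial feature. All 9 lie below 0 in both Stra8 comparisons, and most lie above 0 in Defb41 testicular sperm.

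Defb41 cauda sperm of the cKO had lower LeuAAG, LeuTAG and SerAGA in RPM. Leucine and serine tRNAs together ran from 825 RPM through a median of 3963 to 6671 RPM in 8 controls, and from 801 through 1082 to 4518 RPM in 8 cKO libraries. The groups overlapped widely. Of 54 features tested 17 fell and none rose, against 12.3% of all features called in either direction, 0.367% as higher and 11.9% as lower by edgeR. Of other tRNA features 9.45% were called, all as lower, and with tRNAs summed by anticodon 12.1% of all features were called. The median log2 difference over the 54 was −1.11, against −0.36 over other tRNA features and 0.08 over all features.

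LeuAAG, the leucine tRNA that reads CUU and CUC codons through inosine, ran from 70.5 through 510 to 1169 RPM in controls and from 44.5 through 116 to 391 RPM in cKO. The ranges overlapped, with 6 of 8 controls above the highest cKO library, and the log2 difference was −1.83 (SE 0.53; edgeR adjusted p = 0.00597, with the series as a term). LeuTAG gave −1.47 (SE 0.52; edgeR adjusted p = 0.0381) and SerAGA −1.55 (SE 0.53; edgeR adjusted p = 0.0302). Of 16 fits with 1 library left out LeuAAG kept its call in all. SerAGA lost it without control replicate 1 or 6 or cKO replicate 1, 2 or 3 (edgeR adjusted p up to 0.234), and LeuTAG in the same fits and without control replicate 4 or cKO replicate 5, 7 or 8 (up to 0.141). Relative to all tRNA reads LeuAAG (−1.15, edgeR adjusted p = 0.709), LeuTAG and SerAGA were not called. Without the series term LeuAAG (−1.79, edgeR adjusted p = 0.155), LeuTAG and SerAGA were not called either. LeuTAG and SerAGA were not called within series 1 (edgeR adjusted p = 0.0795 and 0.0827) or series 2 (0.867 and 0.641). Within series 1 the LeuAAG log2 difference was −1.91 (edgeR adjusted p = 0.0358) and within series 2 −1.74 (adjusted p = 0.361). Its mean was 307 RPM in controls and 81.5 RPM in cKO of series 1, and 697 and 209 RPM in series 2. Single features with the smallest adjusted p were chr10.trna1326-LeuTAA (log2 difference −1.97, edgeR adjusted p = 0.00182), chr13.trna63-LeuAAG (−1.95, 0.00226) and chr11.trna401-LeuTAG (−1.92, 0.0037). SerTGA (−1.30, edgeR adjusted p = 0.0997), nuclear LeuTAA (−1.23, 0.134) and LeuCAG (−1.16, 0.183) did not pass, nor did LeuCAA, SerCGA, SerGCT and SerGGA, at −0.13 to −0.94. SerTGA did pass under TMM scaling (−1.03, edgeR adjusted p = 0.0284) and in DESeq2 (−0.98, DESeq2 adjusted p = 0.0109). SerGCT passed in series 1 alone (−1.94, edgeR adjusted p = 0.0285).

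The count of 17 was 8 in series 1 alone, 0 in series 2 alone, 1 without the series term, 0 relative to all tRNA reads and 8 without control replicate 1. Relative to all tRNA reads none of the 435 tRNA features was called. As a share of tRNA reads the groups had means of 0.946% in controls and 0.975% in cKO, but cKO replicate 6 alone stood at 5.15% and the other cKO libraries averaged 0.380%, which gave a log2 ratio of −1.32 without it against 0.044 with it. All tRNA reads were on average 52.3% of control and 39.6% of cKO libraries. Germ-cell microRNAs were lower in these cKO libraries too, at 68.3 to 789 RPM against 851 to 4355 RPM, without overlap; their part was not tested.

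In series 1 the Defb41 genotype difference differed between the sites. Of 52 features tested 23 had a lower log2 difference in the cauda than in the testis and none a higher one, against 14.5% of all features, 25.7% of other tRNA features and 12% of all features with tRNAs summed by anticodon. The difference between sites was −3.22 for LeuAAG (SE 0.88; edgeR adjusted p = 0.0101), −3.26 for SerGCT (SE 0.93; 0.0143), −3.01 for LeuTAG (SE 0.86; 0.0143), −2.86 for SerAGA (SE 0.84; 0.0164) and −2.82 for SerTGA (SE 0.86; 0.0231). Without cauda control replicate 1 SerGCT (−1.61, edgeR adjusted p = 0.291), SerAGA (−1.94, 0.119) and SerTGA (−1.74, 0.227) were not called. SerTGA was not called without testis control replicate 2 or 4, testis cKO replicate 2, or cauda cKO replicate 1 or 3 either. Without testis cKO replicate 2 SerGCT (−2.64, edgeR adjusted p = 0.067) was not called, nor was LeuTAG (−2.59, 0.0531). The count was 2 without cauda control replicate 1, 3 without testis cKO replicate 2, 13 without cauda cKO replicate 1 or 3 and 15 without testis control replicate 4. It was 0 relative to all tRNA reads, where none of the 422 tRNA features tested was called.

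Between the testis and the cauda, the leucine and serine tRNAs of Stra8 control sperm did not move together. In RPM, nuclear LeuTAA rose from 62.8, 36.6, 77.0 and 88.4 RPM in the testis to 268, 325, 978 and 1046 RPM in the cauda. The sites did not overlap, and the log2 difference was 3.30 (SE 0.51; edgeR adjusted p = 1.93e-06). SerGCT rose from 38.4 to 82.7 RPM up to 179 to 492 RPM (log2 difference 2.60, SE 0.45; edgeR adjusted p = 7.64e-06), and SerCGA by 2.59 (SE 0.49; 2.55e-05). LeuCAA (1.68, edgeR adjusted p = 0.00079), LeuTAG (1.29, 0.0174), LeuAAG (1.22, 0.0226) and the LeuTAA sum (2.25, 9.91e-05) passed with smaller differences. The most abundant anticodons did not pass: LeuCAG gave 0.60 (edgeR adjusted p = 0.182), SerAGA −0.45 (0.364) and SerTGA −0.25 (0.613). Both LeuAAG and LeuTAG lost their calls without testis control replicate 2 (1.01 and 1.05, edgeR adjusted p = 0.079 and 0.0689) and without cauda control replicate 4 (0.78 and 0.87, adjusted p = 0.148 and 0.108). Mitochondrial LeuTAA fell by 1.18 (SE 0.42; edgeR adjusted p = 0.0124), from 48.5 to 143 RPM down to 23.8 to 42.3 RPM.

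Of 49 features tested in this comparison 20 rose and 2 fell, where edgeR called 72.7% of all features, 19.2% as higher and 53.5% as lower. Other tRNA features were called in 62.4% of cases, and all features with tRNAs summed by anticodon in 78.2%. The smallest adjusted p among rises belonged to chr10.trna1326-LeuTAA (log2 difference 3.54), chr13.trna982-SerGCT (2.86) and chr13.trna115-SerGCT (2.84). The 2 that fell were chr3.trna1026-LeuCAG (log2 difference −1.73, edgeR adjusted p = 0.00555) and chrM.trna1-LeuTAA (−1.18, 0.0201). These directions depend on what the counts are scaled to. Relative to all tRNA reads 37 features fell and none rose, and under TMM scaling, which shifted the median of single features by 1.91 and that of the anticodon table by 2.58 on the log2 scale, 47 rose and none fell, mitochondrial LeuTAA included at 0.78. Relative to all tRNA reads, where tRNA features alone were tested, 74.2% of 387 features were called. TMM scaling called 69.8% of all features. Relative to all tRNA reads SerCGA, at −1.11, and SerGCT, at −1.15, still lay above LeuCAG, at −3.13, while SerAGA, at −4.24 (edgeR adjusted p = 9.17e-06), and SerTGA, at −4.04 (1.65e-05), were called as lower.

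Defb41 controls rose more evenly, from 354 to 1196 RPM of leucine and serine tRNAs in the testis to 825 to 6098 RPM in the 4 cauda libraries of series 1. In RPM 8 of 10 anticodons passed, with log2 differences of 2.02 (LeuCAG; edgeR adjusted p = 0.00188) to 3.79 (SerGCT; 6.5e-08). SerAGA (2.04, edgeR adjusted p = 0.00231), SerTGA (2.25, 0.00117) and mitochondrial LeuTAA (3.47, 2.3e-06) also passed, and SerCGA (1.22, 0.106) and SerGGA (−0.89, 0.359) did not pass. Of 46 features tested 41 rose and none fell, against 46.5% of all features called and 17.7% called as higher, or 41.5% called with tRNAs summed by anticodon. The smallest adjusted p belonged to SerGCT features, chr11.trna1821-SerGCT (log2 difference 4.14), chr13.trna982-SerGCT (4.04) and chr2.trna1509-SerGCT (3.97). The count was 23 without testis control replicate 4 and 24 without cauda control replicate 1, and relative to all tRNA reads 42 fell and none rose. In that last setting 74.7% of the 380 tRNA features tested were called. SerGCT stood at 1403, 96.8, 137 and 204 RPM in the 4 cauda libraries and at 28.9 to 36.7 RPM in the testis, so replicate 1 alone was far above the rest. Without it the SerGCT difference was 2.13 (edgeR adjusted p = 0.000718), SerAGA (1.11, 0.0759) and SerTGA (1.17, 0.0916) were not called, and the 3 SerGCT features lay at 2.51, 2.32 and 2.28. LeuCAG was not called without cauda control replicate 4 (1.45, edgeR adjusted p = 0.0529), and SerTGA was 2.91 without testis control replicate 1.

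In epididymal tissue the leucine and serine tRNAs were sparse, and in the Stra8 line LeuCAG was higher in the cauda than in the caput. In Stra8 controls LeuCAG ran from 41.5 through a median of 75.6 to 132 RPM in 7 caput libraries and from 204 through 267 to 478 RPM in 6 cauda libraries. The sites did not overlap, and the log2 difference was 2.05 (SE 0.25; edgeR adjusted p = 3.32e-05, with the series as a term). It was 2.09 within series 1 (edgeR adjusted p = 0.0035) and 2.00 within series 2 (0.000316), and 1.89 relative to all tRNA reads (2.42e-05). In Stra8 cKO tissue LeuCAG ran from 42.3 through 60.4 to 88.8 RPM in the caput and from 166 through 345 to 548 RPM in the cauda, again without overlap. SerCGA also passed (log2 difference 0.81, SE 0.31; edgeR adjusted p = 0.0394), but not in 10 of the 13 fits with a library left out (largest adjusted p 0.104) nor relative to all tRNA reads (0.66, 0.179). SerAGA (−0.67, 0.0817), SerGCT (0.90, 0.073) and mitochondrial LeuTAA (0.90, 0.0627) did not pass, though relative to all tRNA reads SerAGA (−0.90, edgeR adjusted p = 0.0207) and SerGCT (0.87, 0.0149) did. Of 33 features tested 11 rose, all of them leucine features, and none fell, against 42.2% of all features called and 8.92% called as higher, or 52.1% called with tRNAs summed by anticodon. The smallest adjusted p belonged to chr8.trna416-LeuCAG (log2 difference 2.15), chr1.trna703-LeuCAG (2.11) and chr1.trna1001-LeuCAG (2.08). The count was 18 under TMM scaling, 19 in DESeq2 and 24 in series 2 alone. Relative to all tRNA reads it was 15, of which 12 were higher and 3 lower. Of all features 59.3% were called under TMM scaling and 62.3% in DESeq2, and of 289 tRNA features 42.9% relative to all tRNA reads. By anticodon LeuCAG was not alone under other settings. Under TMM scaling LeuAAG (1.31, edgeR adjusted p = 0.000159), the LeuTAA sum (1.41, 0.000151), LeuTAG (1.23, 0.000495) and SerGCT (1.70, 4.74e-06) passed as higher. The same anticodons passed as higher in DESeq2 and in series 2 alone.

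**Figure D5:**
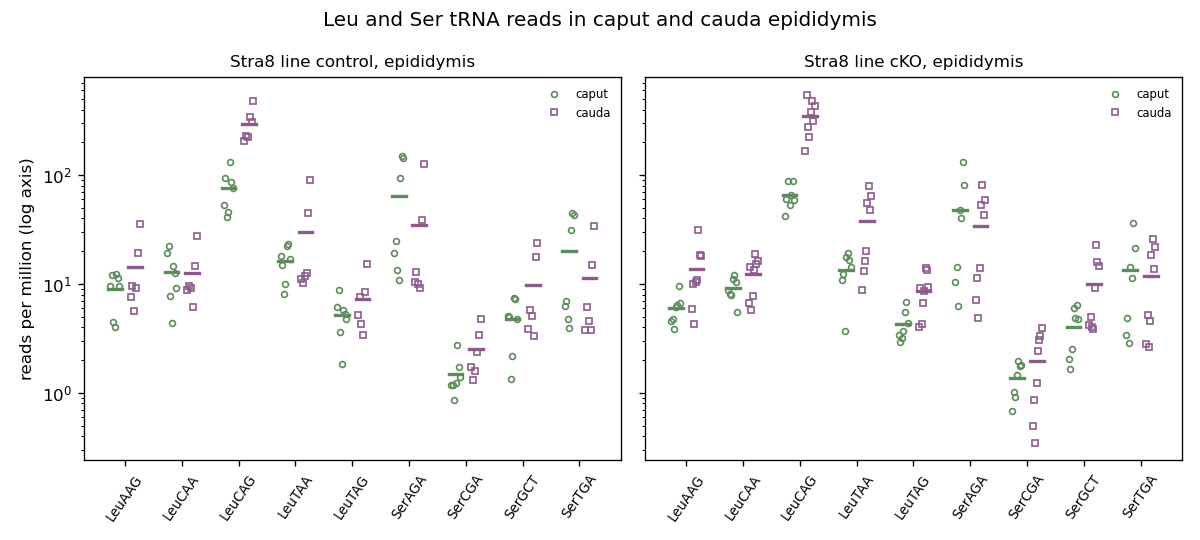
Level of 9 anticodons (SerGGA is not drawn) in caput and cauda epididymis of Stra8 control and cKO mice, in RPM on a log axis; points are libraries and lines group means. LeuCAG separates the sites in controls, at 41.5 to 132 RPM in the caput and 204 to 478 RPM in the cauda.

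SerAGA in Stra8 epididymis lay at different levels in the 2 series. In control caput its mean was 17.1 RPM ± 6.14 in the 4 libraries of series 1 and 129 RPM ± 29.6 in the 3 libraries of series 2. In control cauda the means were 10.6 RPM ± 1.54 (n = 4) and 82.8 RPM ± 62.2 (n = 2). Within series 2 the cKO means were 75.5 RPM ± 42.1 in the caput (n = 4) and 58.7 RPM ± 16.01 in the cauda (n = 4). The labels give the series only as a naming scheme, so what differed between them was not tested.

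Genotype differences in epididymis rarely passed the test. No leucine or serine feature was called by edgeR in Stra8 caput (31 tested, 5 with an unadjusted p under 0.05; 0% of all features called), Stra8 cauda (39 tested, 2 under 0.05; 1.95% of all features called, 1.07% as higher) or Defb41 caput (29 tested, 1 under 0.05; 0% of all features called); DESeq2 called none in these comparisons. The smallest edgeR adjusted p over the anticodons was 0.323 (SerTGA, log2 difference −0.75) in Stra8 caput, 0.217 (SerCGA, −0.79) in Stra8 cauda and 0.627 in Defb41 caput. By anticodon DESeq2 called SerCGA in Stra8 cauda, as lower in the cKO (log2 difference −0.88, DESeq2 adjusted p = 0.0281). In the libraries labelled Defb41 cKO cauda SerTGA was lower, at 1.04, 1.68 and 2.52 RPM against 3.46, 10.5, 4.51 and 7.90 RPM in controls, without overlap (log2 difference −1.92, SE 0.52; edgeR adjusted p = 0.0416). That call was lost without control replicate 2, 3 or 4 or cKO replicate 1 or 2 (edgeR adjusted p up to 0.177). The SerTGA call was also lost in DESeq2 (DESeq2 adjusted p = 0.099). In edgeR it was lost under TMM scaling (adjusted p = 0.156), with no filter (0.064), relative to all tRNA reads (0.106) and with a replicate block (0.1). Of 24 features tested chr13.trna996-SerTGA alone fell (log2 difference −2.76, edgeR adjusted p = 0.0463), against 6.36% of all features called, or 11.8% with tRNAs summed by anticodon. It was called in none of the fits that left out a library other than control replicate 1, where 5 features were, and neither under TMM scaling nor relative to all tRNA reads. Values of a few RPM rest on few reads here. The mRNA markers went against the labels of Defb41 cKO caput and of Defb41 control cauda, as given above.

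Genes listed for the charging, modification, processing or cleavage of tRNAs were looked up in the mRNA of Stra8 control epididymis, with 4 cauda and 3 caput libraries, as the setting of the LeuCAG difference. Of 73 listed genes 53 were expressed enough to test, and 9 were higher and 13 lower in the cauda, where limma called 39.8% of all genes, 21.1% as higher and 18.7% as lower. The median log2 difference was 0.18 over the list and 0.11 over all genes, on the log2(TPM + 1) scale used for all mRNA differences here. Lars, the cytosolic leucyl-tRNA synthetase, had a mean of 4.43 TPM ± 1.95 in the caput (n = 3) and 7.98 TPM ± 0.752 in the cauda (n = 4), a log2 difference of 0.78 (limma adjusted p = 0.0335). Its mitochondrial counterpart Lars2 fell by 1.41 (limma adjusted p = 0.0259), from 21.2 TPM ± 12.4 to 6.21 TPM ± 1.06, and by 2.03 without caput replicate 2. Sars, the cytosolic seryl-tRNA synthetase, did not pass (log2 difference 0.38, limma adjusted p = 0.0551), and mitochondrial Sars2 fell by 0.61 (0.031).

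The cleavage list held ribonucleases of the A and T2 families, schlafen genes, Dicer1 and the ribonuclease inhibitor Rnh1, and of its 13 tested genes 4 were higher and 4 lower. Whether the products of these genes cut tRNAs in the epididymis was not tested. Of the 4 lower ones the inhibitor Rnh1, which is not a ribonuclease, fell by 1.37 (limma adjusted p = 0.000389). The ribonuclease gene Rnaset2b fell by 0.36 (limma adjusted p = 0.034). Rnh1, Rnaset2b, Rnase4, at 0.75 (limma adjusted p = 0.0328), and Rnase12, at 0.91 (0.00202), were named after their values were seen. Ang, encoding angiogenin, a nuclease known to cleave tRNA anticodon loops, did not pass (log2 difference −0.37, limma adjusted p = 0.259). Rnase10, an epididymal member of the ribonuclease A family, had 2495 TPM ± 380 in the caput and 4.64 TPM ± 2.12 in the cauda (log2 difference −8.87, limma adjusted p = 2.81e-08), and Rnase13 fell by 5.40 (0.00607). Rnase13 stood at 504, 20.5 and 35.2 TPM in the caput and 0.66 to 0.83 TPM in the cauda, and its difference was −4.01 without caput replicate 1 and −6.29 without caput replicate 2. Rnase1, the pancreatic-type ribonuclease, was higher in the cauda at 18.95 TPM ± 3.15 against 0.567 ± 0.831 (log2 difference 3.78, limma adjusted p = 8.09e-06), and Rnase11 was higher by 1.04 (0.0173). Of 19 tested genes of tRNA processing 2 were higher and 3 lower. Rtcb, the ligase that joins tRNA exons, fell by 2.10 (limma adjusted p = 1.81e-06), Clp1, an RNA kinase of tRNA splicing, was 1.45 higher (9.45e-05), and Elac1 was 0.94 higher (0.00899). Of 14 tested genes of tRNA modification 2 were higher and 3 lower, of 4 charging genes 1 and 2, and of 3 genes of the selenocysteine pathway, whose tRNA also has a long variable arm, 0 and 1. Muscle markers moved with the sites, at 411 to 954 TPM in the caput and 2827 to 3129 TPM in the cauda, and their part was not tested. The count of 22 was 14 without caput replicate 2 or without cauda replicate 3.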

How the data were processed

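Small RNA features were analysed as whole-number counts per library, as the authors deposited them for sperm and epididymis. The labels name the mouse build mm10 and an Illumina small RNA kit on gel-selected RNA, and the submitters' processing notes name Bowtie2 for small RNA and RSEM for mRNA, with no version; filters and the handling of reads with several matches are not stated in the sources at hand. mRNA was analysed from the deposited TPM values, whose depth is unknown.

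From the counts, reads scaled to each library total (RPM) and percentages of tRNA reads were computed. Differences were tested with edgeR 4.0.16 (quasi-likelihood, R 4.3.3) on all small RNA features that reached 10 counts in a number of libraries equal to the smaller group, with the library total as size, the series as a term where a group had 2, and Benjamini-Hochberg adjustment over all features; a feature was called at an adjusted p under 0.05. The same fits were run with tRNA features summed by anticodon. The LeuTAA sum holds the mitochondrial feature, and its separation was chosen after seeing the data. mRNA was tested with limma 3.58.1 on log2(TPM + 1) over genes that reached 1 TPM by the same rule. The alternatives were TMM factors, DESeq2 1.42.0 (whose adjusted p values given as NA stayed NA), no filter, the tRNA total as size, a replicate block, no series term, each series alone, each library left out and, for mRNA, a pseudocount of 0.1 and no filter. With the tRNA total as size only tRNA features were tested, and the adjustment ran over them. Fits were tested on simulated data.

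Named in the text are all anticodons, the feature with the highest mean RPM in each anticodon, up to 3 called features in each direction and comparison with the smallest adjusted p, up to 4 called genes in each direction with the largest difference, and Lars, Lars2, Sars, Sars2 and Ang; chr13.trna964-LeuCAG and other features whose sequences are shown were added to illustrate sets of near-identical counts. The members and lists were chosen with earlier results of these data known. Sequences were read from RefSeq with samtools 1.23.1. Groups come from the genotype and tissue labels; 1 library whose labels conflict on genotype was left out, as were embryo data. Within each group no pair of libraries agreed within sampling noise. Percentages use summed tRNA features, which in series 2 of Defb41 cauda sperm exceeded the tRNA total of the deposited class table by a factor of 1.012 to 1.505. Replicate numbers come from the titles and were not taken to pair libraries.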

Additional observations from a re-analysis of the deposited data

Results flagged for a closer look

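In 143 combinations of a group of 4 to 10 libraries and an anticodon, Dixon's test on RPM at its 95% level found 21 cases of a library apart from its group. Chance gives about 1 in 20 where a group is 1 population with normally distributed values. That does not apply to Defb41 cauda sperm and Stra8 epididymis, whose groups hold 2 series, and whether RPM is normally distributed was not tested. The cases are not independent, since some anticodons share counts and 1 library can be found in several anticodons. Of the 21, 10 lay in Defb41 cauda sperm. There, cKO replicate 6 was highest in LeuCAA (538 RPM, next 227), nuclear LeuTAA (440, next 172), LeuTAG (282, next 121), SerCGA (298, next 109), SerGCT (543, next 207), SerGGA (82.3, next 32.7) and SerTGA (496 RPM, next 222), and cKO replicate 4 in LeuCAG (1242 RPM, next 412). Among the controls of that group, replicate 6 was highest in LeuTAG (522 RPM, next 243) and replicate 1 in SerGCT (1403 RPM, next 265).

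Defb41 control testicular sperm replicate 1 was highest in SerGGA (6.94 RPM, next 1.03) and SerTGA (81.9 RPM, next 29.9). In Stra8 testicular sperm, cKO replicate 2 was highest in nuclear LeuTAA (46.7 RPM, next 19.9) and SerCGA (5.99, next 2.35), control replicate 1 in mitochondrial LeuTAA (143, next 63.8), and control replicate 2 was lowest in LeuCAG (1262 RPM, next 2567). In epididymis, Stra8 control cauda replicate 6 was highest in SerAGA (127 RPM, next 38.8) and SerTGA (34.4, next 14.9), and Stra8 control caput replicate 1 in SerGGA (3.88, next 1.72). Defb41 control cauda replicate 1 was lowest in mitochondrial LeuTAA (1.46 RPM, next 5.51), and replicate 4 alone had a SerGGA read level above 0 (0.0613 RPM, others listed at 0).

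The genotype difference itself differed between groups in 14 tests of an interaction in edgeR. Between cauda and testicular sperm it differed by 2.22 on the log2 scale for mitochondrial LeuTAA in the Stra8 line. In the Defb41 line it differed by −3.22 for LeuAAG, −3.01 for LeuTAG, −2.86 for SerAGA, −3.26 for SerGCT and −2.82 for SerTGA. Between the Defb41 and Stra8 lines in testicular sperm it differed by 2.33 for LeuAAG, 2.17 for LeuCAG, 2.56 for the LeuTAA sum, 2.36 for LeuTAG, 3.75 for SerAGA, 2.93 for SerGCT, 3.56 for SerTGA and 2.67 for mitochondrial LeuTAA.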

How the results depend on the processing

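Several results depend on what the counts are scaled to. TMM factors moved the median of single features by up to 1.91 on the log2 scale and that of the anticodon table by up to 2.58 (Stra8 control cauda against testicular sperm), and scaling to the tRNA total moved them by as much as −5.83 and −5.80 (Defb41 controls). With the tRNA total the count of called features was 0 in Stra8 cauda sperm, Defb41 cauda sperm, Defb41 cauda epididymis and all 3 comparisons of genotype differences, and 37, all lower, in Stra8 control cauda against testicular sperm (42, all lower, in the Defb41 controls). That setting tested tRNA features alone. It called none of any amino acid in Stra8 cauda sperm (350 tested), Defb41 cauda sperm (435), Defb41 cauda epididymis (206) and the Defb41 difference between sites (422). The share called was 3.19% in the Stra8 difference between sites and 1.89% between the lines. Cauda against testicular sperm gave 74.2% in Stra8 and 74.7% in Defb41 controls. The log2 ratio of group means for all leucine and serine reads, taken as a percentage of tRNA reads, was −0.90 in Defb41 testicular sperm (0.99 in RPM), 0.044 in Defb41 cauda sperm (−1.13), −0.47 in Stra8 cauda epididymis (0.21), −0.85 in Defb41 caput (0.03), −3.15 in Stra8 control cauda against testicular sperm (0.60) and −3.47 in the Defb41 counterpart (2.30). Leaving out 1 library at a time, chosen after seeing the data, took the share ratio from −1.32 to 0.36 in Defb41 cauda sperm, with the lowest value without cKO replicate 6, and from −2.15 to 0.998 in Defb41 caput, where it was above 0 without control replicate 2 and lowest without cKO replicate 3. In Stra8 caput it ran from −0.38 to 0.028.

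Directions turned under that scaling in Stra8 control cauda against testicular sperm for LeuAAG (−2.50), LeuCAA (−2.10), LeuCAG (−3.13), LeuTAA (−1.51), LeuTAG (−2.43), SerCGA (−1.11), SerGCT (−1.15), chr10.trna1326-LeuTAA (−0.19), chr13.trna115-SerGCT (−0.90) and chr13.trna982-SerGCT (−0.89). In the Defb41 controls they turned for LeuAAG (−3.59), LeuCAA (−3.23), LeuCAG (−3.78), LeuTAA (−3.08), LeuTAG (−3.49), SerAGA (−3.70), SerCGA (−4.30), SerGCT (−2.08), SerTGA (−3.43), chr11.trna1821-SerGCT (−1.77), chr13.trna982-SerGCT (−1.88) and chr2.trna1509-SerGCT (−1.93). Between the lines in testicular sperm LeuAAG, LeuTAG and LeuCAG turned to −0.033, −0.035 and −0.13. Under TMM and DESeq2 scaling, Stra8 control cauda against testicular sperm turned to 2.04 and 2.00 for SerAGA, 2.24 and 2.21 for SerTGA, 0.24 and 0.24 for chr3.trna1026-LeuCAG and 0.78 and 0.79 for chrM.trna1-LeuTAA, and LeuCAA in Stra8 cauda against caput epididymis to 0.74 and 0.87. Whether the shift of scale alone accounts for these turns was not tested.

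Counts of called features moved further as follows. TMM gave 0 in Defb41 cauda epididymis, 47 in Stra8 control cauda against testicular sperm, 0 in the Stra8 difference between sites and 18 in cauda against caput epididymis. Over all features TMM called 0.0895%, 69.8%, 2.35% and 59.3% in these comparisons, in that order. DESeq2 gave 34 in Stra8 cauda sperm, 47, 2 and 19 in Stra8 control cauda against testicular sperm, the Stra8 difference between sites and cauda against caput epididymis. Its shares over all features were 14.9%, 73.3%, 5.25% and 62.3%, in that order. With no filter 18 were called in Stra8 cauda sperm and 0 in the Stra8 difference between sites. Defb41 cauda sperm gave 1 with no series term, 8 in series 1 alone and 0 in series 2 alone, and cauda against caput epididymis 24 in series 2 alone. The cause of these moves was not tested.

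Replicate numbers were not taken to pair the libraries, since no comparison had every same-numbered correlation above 0.1. Each Stra8 cauda sperm library nevertheless correlated best with its own number (0.0878 to 0.78), a hint from the data only, so pairing there stays undecided. A replicate block gave 12 called features in Stra8 testicular sperm, 32 in Stra8 cauda sperm, 0 in Defb41 cauda epididymis and 0 in the Stra8 difference between sites. With that block LeuAAG, LeuCAA, LeuCAG, LeuTAG, SerAGA, SerGCT and SerTGA also passed as lower in Stra8 cauda sperm (edgeR adjusted p up to 0.0489).

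Leaving out 1 library at a time gave 10 to 23 called features in Stra8 testicular sperm, 0 to 30 in Stra8 cauda sperm, 0 to 1 in Defb41 testicular sperm, 8 to 25 in Defb41 cauda sperm, 0 to 0 in Stra8 caput and cauda and Defb41 caput epididymis, and 0 to 5 in Defb41 cauda epididymis. It gave 17 to 24 and 23 to 45 in Stra8 and Defb41 control cauda against testicular sperm, 0 to 2 and 2 to 29 in the Stra8 and Defb41 differences between sites, 11 to 39 between the lines, 8 to 13 in cauda against caput epididymis and 14 to 22 of the mRNA genes. For single anticodons and features, 816 alternative values kept direction and call, 68 lost a call, 57 gained one and 35 turned; of 1902 values with a library left out 1732 kept both, and none turned. Depth limits epididymis most, with as few as 72 leucine and serine reads in a library.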
